A study of Arabidopsis thaliana with 6 samples.

Results

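Root hair formation in Arabidopsis thaliana rests on a small set of regulators, and 8 of them are described here across phosphate supply and the phl2 mutation: RHD6, RSL1, RSL2, RSL4, GL2, CPC, WER and TTG1. They were chosen by gene identifier, not by their values, and are 8 of the 33602 genes in the deposited table. PHL2 belongs to the same MYB family as PHR1, which is known to switch on genes of phosphate starvation. All samples were roots of Col-0 seedlings aged 8 days, sequenced as polyadenylated RNA in strand-specific (dUTP) libraries. The groups were phl2 mutants on phosphate-deficient medium (phl2 P-, replicates 5 and 6), wild type on deficient medium (WT P-, replicates 3 and 4) and wild type on sufficient medium (WT P+, replicates 1 and 2). The design sets deficient against sufficient wild type, and mutant against wild type under deficiency. The labels do not give the phl2 allele, and no phl2 roots on sufficient medium were analysed here. A difference between phl2 P- and WT P- may therefore be present with phosphate too.

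In the root epidermis, hair and non-hair cells alternate in files set by their contact with the cortex. In non-hair cells the MYB factor WER acts in a complex with TTG1, a WD40-repeat protein, and with basic helix-loop-helix (bHLH) partners. The complex switches on GL2, a homeodomain factor that represses hair genes, and CPC, a small MYB-type protein that moves to neighbouring cells and blocks the complex there. Without GL2, hair cells express the bHLH factors RHD6 and RSL1, which start the hair, and RSL2 and RSL4, which act after them and drive its growth. Roots of phosphate-starved Arabidopsis are known to bear longer and denser hairs.

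The values are RPKM, that is, reads scaled to gene length and to the reads of the library. The denominators recovered from the table were 9416000 to 12801000 reads per column. Over all genes, the values stood for 696327 and 665905 reads in the phl2 columns, 909955 and 913051 in WT P- and 662579 and 616409 in WT P+, or 5.44% to 9.07% of the denominators. Which strand was counted is not stated, and with so small a share it could not be settled whether the values come from the strand of each gene or the opposite one. After division by the RPKM that 1 read is worth, the phl2 columns held equal reads in 17207 of 21237 genes (81.0%, relative tolerance 0.001), against at most 9.6% in any other pair. Their difference was below sampling noise, and their mean was counted as 1 sample. PHL2 itself was listed at 1.04 and 0.934 RPKM in the phl2 columns, at 2.14 and 2.24 in WT P- and at 1.65 and 2.37 in WT P+, and was not called lower in phl2 P- than in WT P- (log2 change -0.68 ± 0.22, limma adjusted p = 0.055, and -0.25 ± 0.24 with adjusted p = 0.62 after the rescaling described next), so its level does not check the genotype label. Most genes moved together between groups: the median log2 change was 0.33 in WT P- against WT P+ and -0.48 in phl2 P- against WT P-. Changes of the regulators are therefore also given after every library was rescaled by its median ratio to the geometric mean over genes, which brought these medians to 0.0 and -0.01.

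The regulators held few of the reads counted in the table, which are a small share of each library. Together they were listed at 6.18 to 7.03 RPKM in phl2 P-, 9.2 to 10.7 in WT P- and 5.2 to 5.48 in WT P+. Behind these sums stood 117 and 113 reads in the phl2 columns, 149 and 141 in WT P-, and 91 and 97 in WT P+. The hair-promoting RHD6, RSL1, RSL2 and RSL4 held 54 of these reads in each phl2 column, 78 and 83 in WT P-, and 26 and 24 in WT P+. Per 100000 reads of the table these were 7.75 and 8.11 in phl2 P-, 8.57 and 9.09 in WT P-, and 3.92 and 3.89 in WT P+. The non-hair regulators WER, TTG1 and GL2 held 58 and 54 reads in the phl2 columns, 62 and 53 in WT P-, and 63 and 71 in WT P+. Per 100000 reads of the table they were at 8.33 and 8.11 in phl2 P-, 6.81 and 5.8 in WT P-, and 9.51 and 11.5 in WT P+. The hair-promoting reads lay above their WT P+ values in every library grown without phosphate. Among the non-hair regulators GL2 alone had fewer reads in WT P- than in WT P+, whereas WER had 9 and 11 reads in WT P- and 7 and 6 in WT P+, and TTG1 had 13 and 6 in WT P- and 5 in each WT P+ library. These sums were formed after the values were seen and carry no test, and RSL2 and GL2 supply most of their reads.

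**Figure D1:**
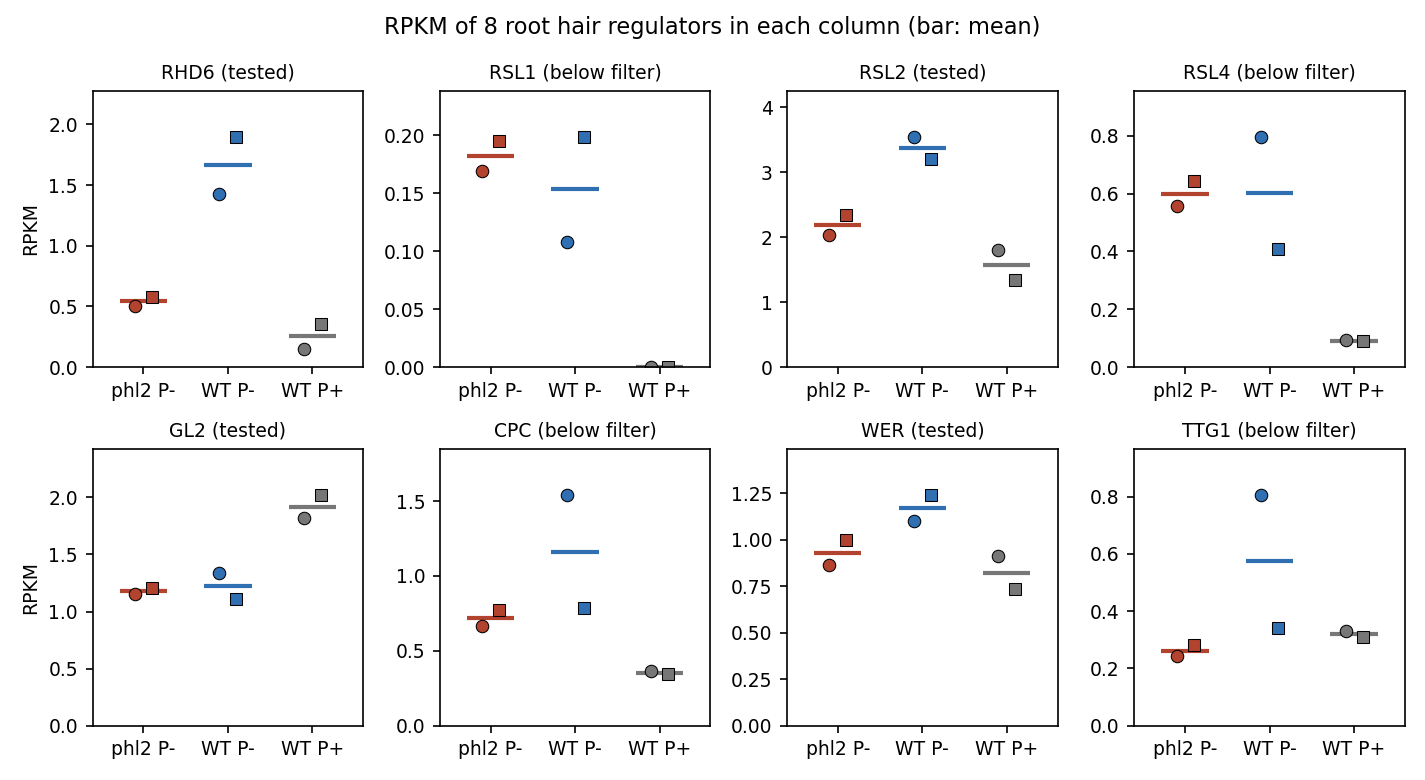
RPKM (linear axes, each from 0) of the 8 regulators in phl2 P-, WT P- and WT P+. Circles and squares are the lower and higher replicate number and horizontal lines the group means, and the phl2 columns share their reads. RHD6 stood at 1.43 and 1.9 in WT P-, above its other columns, and GL2 was highest in WT P+ at 1.82 and 2.02.

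Tests were made with limma on log2(RPKM + 1) over the 11463 genes that reached 1 RPKM in at least 2 columns, and a gene was called when its Benjamini-Hochberg adjusted p over all these genes was under 0.05. Changes on this scale understate those of low genes. RHD6, RSL2, GL2 and WER entered the test. RSL2 and GL2 reached 1 RPKM in all 6 columns, whereas RHD6 and WER did so in the WT P- libraries alone. RSL1, RSL4 and TTG1 stayed below 1 RPKM in every column and CPC exceeded it in 1 column alone, so these 4 were not tested and are described by their values. Nothing in the labels tells whether replicates were grown separately, so the p-values reflect only how these libraries vary, which could be technical variation. In whole roots, fewer cells of a type and less RNA per cell cannot be told apart.

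RHD6 and RSL1 are close relatives that act first in hair formation, and their sequences before the annotated start are alike. The 250 bases before the start of RHD6 (TAIR10.1 from RefSeq, chr1:24794964-24795213, plus strand) and of RSL1 (chr5:15035816-15036065, plus strand) are printed 5′ to 3′, with shared runs of at least 12 bases in capitals. RSL2 (chr4:16241170-16241419, minus strand), the other bHLH gene that was called, is shown for comparison and has no such run.
RHD6: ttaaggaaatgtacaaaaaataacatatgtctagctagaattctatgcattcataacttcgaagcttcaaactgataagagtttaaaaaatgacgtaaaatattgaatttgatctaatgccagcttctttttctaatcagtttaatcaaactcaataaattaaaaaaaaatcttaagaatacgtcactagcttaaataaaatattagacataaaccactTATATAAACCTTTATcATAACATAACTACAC
RSL1: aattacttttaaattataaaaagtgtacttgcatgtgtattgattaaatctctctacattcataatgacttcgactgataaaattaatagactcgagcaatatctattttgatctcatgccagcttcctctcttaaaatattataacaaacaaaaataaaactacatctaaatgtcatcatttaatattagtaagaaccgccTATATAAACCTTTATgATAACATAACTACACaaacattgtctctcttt
RSL2: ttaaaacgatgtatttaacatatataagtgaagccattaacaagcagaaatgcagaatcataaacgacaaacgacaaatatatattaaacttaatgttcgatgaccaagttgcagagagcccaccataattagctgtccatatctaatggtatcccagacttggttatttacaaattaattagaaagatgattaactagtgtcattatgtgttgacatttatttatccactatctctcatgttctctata

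Both runs, TATATAAACCTTTAT and ATAACATAACTACAC, are 15 bases long and are separated by 1 base that differs between the genes. Each occurs in 2 of the 32826 promoters of this length read from the annotation (0.00609%), those of RHD6 and RSL1. Among the 28 pairs of the 8 genes, the longest shared promoter run in the other 27 pairs was 7 to 10 bases. In their exons RHD6 and RSL1 share a run of 43 bases, the longest of any pair, against 17 bases in RSL2 and RSL4. Reads that match both genes could therefore be split between RHD6 and RSL1, and the sources used here do not give how such reads were counted.

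In windows of 250 bases before to 50 bases after each start, both strands were searched for P1BS (GNATATNC), the sequence bound by PHR1, for the G-box (CACGTG) and for the L1 box (TAAATGCA or TAAATGTA), bound by homeodomain factors of the GL2 class. P1BS was found in 1998 of 32826 promoters (6.09%) and, among the regulators, in that of TTG1, as gaatatac at positions -79 to -72 from the start. The G-box was in 2264 promoters (6.9%) and the L1 box in 1645 (5.01%), and neither was in the windows of the 8 genes. These matches are descriptions of the letters in the windows.

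Among the hair-promoting genes, RHD6 (AT1G66470, TAIR10.1 chromosome 1, 24795214 to 24797015, plus strand) was listed at 0.503 and 0.581 RPKM in the phl2 columns, 1.43 and 1.9 in WT P-, and 0.152 and 0.358 in WT P+. Its WT P- libraries stood above all others, and the phl2 columns lay between the wild-type groups without overlap. It rested on 9 reads in each phl2 column, on 20 and 29 reads in WT P- and on 2 and 5 reads in WT P+. The 2 reads allow 0.24 to 7.22 and the 29 reads 19.4 to 41.6 (exact 95% Poisson intervals, which cover counting error only).

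RHD6 rose in deficient wild-type roots, averaging 1.66 ± 0.34 RPKM in WT P- and 0.255 ± 0.15 in WT P+ (SD, n = 2 each). Its log2 change was 1.09 ± 0.17 (SE, limma adjusted p = 0.0031), and 0.83 ± 0.17 after rescaling (limma adjusted p = 0.021). Pooled over libraries, 49 reads in WT P- and 7 in WT P+ gave a ratio of 6.5, with an exact 95% interval of counting error from 2.93 to 17.0. Ratio and interval use the deposited denominators and include the shift that most genes share. RHD6 passed the limit for testing through WT P- alone, so a difference from WT P+ was favoured by that limit. With no limit on low values its adjusted p was 0.068 by limma. After rescaling, the call was lost without WT P- replicate 3 or 4, with log2 changes of 0.95 and 0.65. These fits leave 1 library in WT P-, and fewer of all tested genes were called in them.

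In phl2 P-, RHD6 averaged 0.542 RPKM, against 1.66 ± 0.34 in WT P- (SD, n = 2). It was called lower as deposited, with a log2 change of -0.78 ± 0.21 (limma adjusted p = 0.043). After rescaling, the change was -0.43 ± 0.21 and was not called (limma adjusted p = 0.33). Without WT P- replicate 3 or 4 the log2 change of RHD6 as deposited was -0.91 or -0.65, and without phl2 column 5 it was -0.75. In these fits RHD6 was not called, and few of all tested genes were called lower. The limit for testing favoured a difference from WT P- here too, and without it the adjusted p was 0.15 by limma.

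RSL1 (AT5G37800, chromosome 5, 15036066 to 15037884, plus strand) was at 0.169 and 0.195 RPKM in phl2 P-, at 0.108 and 0.199 in WT P-, and listed at 0 in both WT P+ libraries. These are 2 reads in each phl2 column, 1 and 2 reads in WT P- and 0 reads in WT P+. The count of 0 allows up to 3 reads as a one-sided limit, or 0.345 and 0.325 RPKM in these libraries. The two-sided Poisson interval allows up to 3.69 reads, so no difference between the groups was detectable with so few counted reads.

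RSL2 (AT4G33880, chromosome 4, 16239363 to 16241169, minus strand), a bHLH factor of the growing hair, was the most abundant of the hair-promoting genes per length. It was listed at 2.03 and 2.35 RPKM in phl2 P- (35 reads in each column), 3.55 and 3.21 in WT P- (48 and 47 reads), and 1.81 and 1.34 in WT P+ (23 and 18 reads). WT P- was highest and WT P+ lowest, and the 3 groups did not overlap. RSL2 was called higher in deficient wild-type roots as deposited. It averaged 3.38 ± 0.25 RPKM in WT P- and 1.58 ± 0.34 in WT P+ (SD, n = 2 each). Its log2 change was 0.77 ± 0.17 (limma adjusted p = 0.013), and with no limit on low values its adjusted p was 0.079 by limma. Relative to the shift of all genes its change was 0.41 ± 0.12 and was not called (limma adjusted p = 0.055). Leaving out WT P+ replicate 2, or WT P- replicate 3 or 4, also ended the call as deposited, with log2 changes of 0.64, 0.71 and 0.83. Each of these fits leaves 1 library in a group, and fewer of all tested genes were called in them.

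In phl2 P- RSL2 averaged 2.19 RPKM, against 3.38 ± 0.25 in WT P- (SD, n = 2), and was not called. Its log2 change was -0.46 ± 0.21 as deposited (limma adjusted p = 0.11) and 0.08 ± 0.15 after rescaling (limma adjusted p = 0.81). The rescaled levels were 2.82 in phl2 P-, 2.61 and 2.62 in WT P-, and 1.82 and 1.61 in WT P+. On that scale phl2 P- lay above both wild-type groups.

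RSL4 (AT1G27740, chromosome 1, 9654475 to 9656089, plus strand), a bHLH factor whose level sets hair length, was listed at 0.556 and 0.642 RPKM in phl2 P-, 0.797 and 0.408 in WT P-, and 0.0944 and 0.0889 in WT P+. The phl2 columns lay between both WT P- libraries, and all columns without phosphate were above both with it. The reads were few, with 8 in each phl2 column, 9 and 5 in WT P-, and 1 in each WT P+ library. The pooled ratio of WT P- to WT P+ was 6.5, with a counting interval from 1.49 to 58.9. Both use the deposited denominators and include the shift that most genes share. With no limit on low values, its log2 change was 0.54 in WT P- against WT P+ (limma adjusted p = 0.12) and 0.01 in phl2 P- against WT P- (limma adjusted p = 1). After rescaling these were 0.40 and 0.29, with adjusted p of 0.17 and 0.47.

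**Figure D2:**
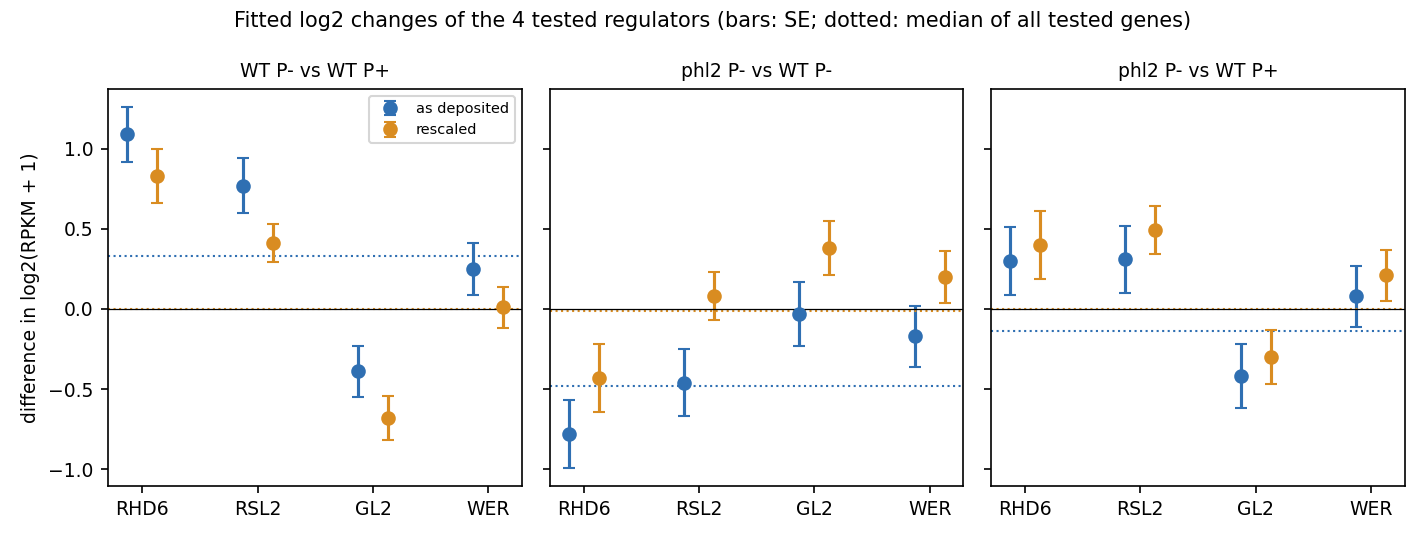
Difference in log2(RPKM + 1) (y axis, ± SE from limma) of RHD6, RSL2, GL2 and WER (x axis) in 3 comparisons, as deposited (blue) and after rescaling (orange), with dotted lines at the median of all tested genes. RHD6 in WT P- against WT P+ was called both ways (1.09 and 0.83), and GL2 in that comparison after rescaling alone (-0.68).

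Of the non-hair regulators, GL2 (AT1G79840, chromosome 1, 30036956 to 30041440, plus strand) was at 1.15 and 1.21 RPKM in phl2 P-, 1.34 and 1.11 in WT P-, and 1.82 and 2.02 in WT P+. Both groups without phosphate overlapped and lay below WT P+. Its reads numbered 44 and 40 in the phl2 columns, 40 and 36 in WT P-, and 51 and 60 in WT P+. GL2 averaged 1.23 ± 0.16 RPKM in WT P- and 1.92 ± 0.14 in WT P+ (SD, n = 2 each). The log2 change of -0.39 ± 0.16 was not called as deposited (limma adjusted p = 0.094). After rescaling, GL2 fell by 0.68 ± 0.14 on the log2 scale and was called (limma adjusted p = 0.022). That call was lost with no limit on low values (limma adjusted p = 0.10). It was also lost without WT P- replicate 3 or 4, with log2 changes of -0.69 and -0.64. With 1 library left in WT P-, fewer of all tested genes were called.

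GL2 thus went against the shift of most genes, since the median of all tested genes was 0.33 in this comparison as deposited. Of its exonic bases, 6.18% lie opposite to exons of another gene, and the sources used here do not give the strand setting of the counting. The other 7 regulators have no such overlap. In phl2 P- GL2 averaged 1.18 RPKM, with a log2 change against WT P- of -0.03 ± 0.2 as deposited (limma adjusted p = 0.92) and 0.38 ± 0.17 after rescaling (limma adjusted p = 0.3). It was the one regulator whose ratio between the phl2 columns (1.051) departed from the common ratio of 1.156, since the columns held 44 and 40 of its reads.

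WER (AT5G14750, listed as MYB66 in RefSeq, chromosome 5, 4763372 to 4764834, minus strand) acts upstream of GL2. It was listed at 0.862 and 0.996 RPKM in phl2 P-, 1.1 and 1.24 in WT P-, and 0.911 and 0.736 in WT P+. The wild-type groups did not overlap, and phl2 P- overlapped WT P+. WER was not called in either comparison with WT P-. Its log2 change was 0.25 ± 0.16 in WT P- against WT P+ (limma adjusted p = 0.23) and -0.17 ± 0.19 in phl2 P- against WT P- (limma adjusted p = 0.48). After rescaling these were 0.01 and 0.20, with adjusted p of 0.98 and 0.54.

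TTG1 (AT5G24520, chromosome 5, 8370317 to 8372847, minus strand) was listed at 0.243 and 0.28 RPKM in phl2 P-, 0.805 and 0.342 in WT P-, and 0.33 and 0.311 in WT P+. One WT P- library stood apart at 13 reads, against 6 in the other and 5 in every remaining column. The phl2 columns were lowest in RPKM with as many reads as WT P+, so these groups differed in the denominator alone. With no limit on low values its changes were 0.24 in WT P- against WT P+ and -0.3 in phl2 P- against WT P- (limma adjusted p of 0.42 and 0.4). After rescaling these were 0.07 and -0.09, with adjusted p of 0.8 and 0.85.

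CPC (AT2G46410, chromosome 2, 19049021 to 19050369, minus strand), the mobile inhibitor that favours hair fate, was at 0.669 and 0.773 RPKM in phl2 P-, 1.54 and 0.786 in WT P-, and 0.364 and 0.343 in WT P+. All columns without phosphate were above both with it, and WT P- replicate 3 was highest. CPC rested on 5 reads in each phl2 column, 9 and 5 in WT P-, and 2 in each WT P+ library. The pooled ratio of WT P- to WT P+ was 3.25, with a counting interval from 1.02 to 13.6. Both use the deposited denominators and include the shift that most genes share. With no limit on low values its log2 change was 0.65 in WT P- against WT P+ and -0.31 in phl2 P- against WT P- (limma adjusted p of 0.15 and 0.48). After rescaling these were 0.42 and 0.06, with adjusted p of 0.27 and 0.93, so the sign of the change in phl2 P- turned.

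Across the regulators, 2 of the 4 tested, RHD6 and RSL2, were called higher in WT P- than in WT P+ as deposited and 0 lower, where 28% of all tested genes were called higher and 4.45% lower. After rescaling RHD6 was called higher and GL2 lower, where 8.1% of all tested genes were called higher and 11.7% lower. Between phl2 P- and WT P-, RHD6 was called lower as deposited and 0 of the 4 higher, where 19.5% of all tested genes were called lower and 0.288% higher. After rescaling, 0 of the 4 were called, where 0.0698% of all tested genes were called higher and 0.0174% lower. At an unadjusted p under 0.05, limma then gave 2169 of all tested genes in that comparison, against 10 called.

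For phl2 P- against WT P+, in which genotype and phosphate differ at once, 0 of the 4 were called as deposited, where 2.54% of all tested genes were called higher and 5.22% lower. After rescaling it was again 0 of the 4, where 5.18% were called higher and 5.15% lower. Their log2 changes as deposited ran from -0.42 for GL2 (limma adjusted p = 0.27) to 0.31 for RSL2 (limma adjusted p = 0.42). After rescaling they ran from -0.30 for GL2 (limma adjusted p = 0.33) to 0.49 for RSL2 (limma adjusted p = 0.086). The 3 comparisons share samples, so their values are not independent of each other. With no limit on low values, 0 of the 8 regulators were called in any comparison. Of the 24207 genes then tested, 1.15% were called in WT P- against WT P+, 0% in phl2 P- against WT P- and 0.00826% in phl2 P- against WT P+ as deposited, and 1.12%, 0% and 0.45% after rescaling.

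**Figure D3:**
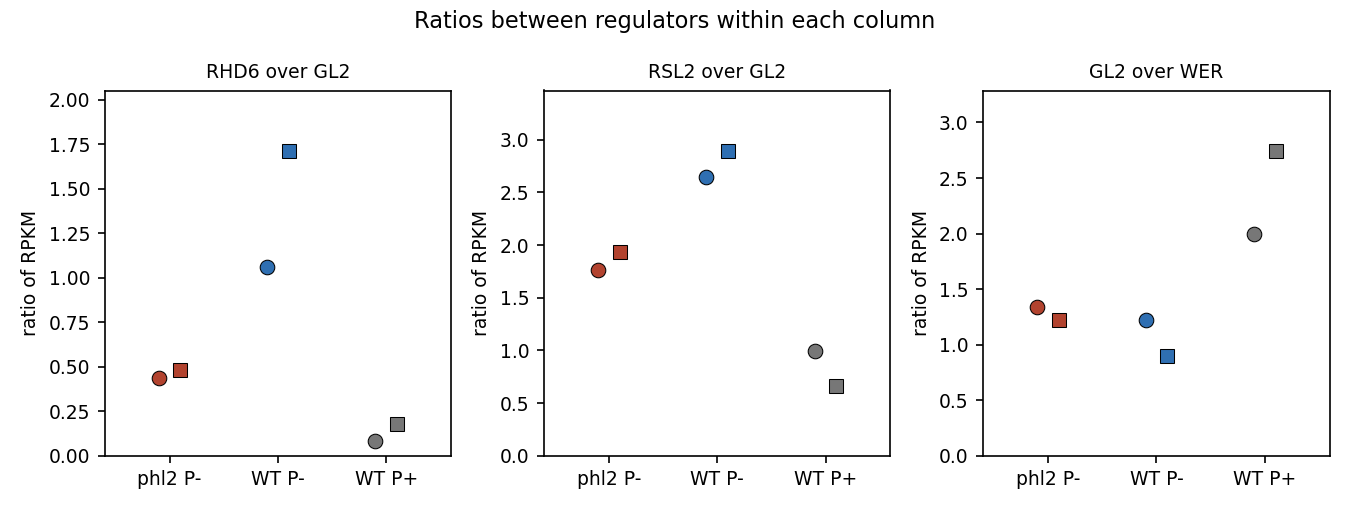
Ratio of RPKM between regulators within each column (linear axes from 0), for phl2 P-, WT P- and WT P+, with circles and squares for the lower and higher replicate number. RSL2 to GL2 was 1.76 and 1.93 in phl2 P-, 2.65 and 2.89 in WT P-, and 0.997 and 0.663 in WT P+.

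Ratios of 2 regulators within a column do not depend on how libraries are scaled. RHD6 stood at 0.435 and 0.479 of GL2 in phl2 P-, 1.06 and 1.71 in WT P-, and 0.0834 and 0.177 in WT P+. For RSL2 to GL2 the ratios were 1.76 and 1.93 in phl2 P-, 2.65 and 2.89 in WT P-, and 0.997 and 0.663 in WT P+. In both ratios WT P- was highest, phl2 P- intermediate and WT P+ lowest, without overlap. RHD6 to RSL2 was 0.248 in both phl2 columns, 0.401 and 0.594 in WT P-, and 0.0837 and 0.267 in WT P+, so in this ratio phl2 P- lay within the WT P+ range.

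GL2 to WER, a target to its activator, was 1.34 and 1.22 in phl2 P-, 1.22 and 0.897 in WT P-, and 2.0 and 2.74 in WT P+, lower in every column without phosphate. RSL2 to WER was 2.36 in both phl2 columns, 3.23 and 2.59 in WT P-, and 1.99 and 1.82 in WT P+. CPC to WER was 0.776 in both phl2 columns, 1.4 and 0.635 in WT P-, and 0.399 and 0.466 in WT P+. WER rested on 6 to 11 reads per column and CPC on 2 to 9, and the phl2 columns share their reads. The counting error of these ratios was not estimated. All pairs were chosen after the values were seen, and no test was made on them.

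The genes whose pattern over the 5 samples was most like that of RSL2 were GCH, RHM1 and RSZ22, with root-mean-square differences of mean-centred log2(RPKM + 1) of 0.012, 0.015 and 0.017. For RHD6 they were AT3G45210, AT1G65985 and AT1G58280, at 0.069, 0.081 and 0.085. The like pattern of these genes includes the shift that most genes share between libraries.

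Around the regulators, 12 other patterning genes were listed, of which 3 could be tested. None was called as deposited in WT P- against WT P+. GEM, a repressor of GL2 and CPC expression, averaged 1.85 RPKM in phl2 P-, 3.01 ± 0.033 in WT P- and 1.9 ± 0.44 in WT P+ (log2 change 0.48 in WT P- against WT P+, limma adjusted p = 0.063, and 0.12 with adjusted p = 0.53 after rescaling). SUB, a receptor-like kinase of positional signalling, had a log2 change of 0.44 (limma adjusted p = 0.085), and of 0.17 after rescaling (limma adjusted p = 0.44). JKD, a zinc finger protein that acts from the cortex on epidermal pattern, averaged 0.823 RPKM in phl2 P-, 0.908 ± 0.11 in WT P- and 1.29 ± 0.3 in WT P+. It was called lower in WT P- after rescaling alone (-0.49 ± 0.13, limma adjusted p = 0.048, against -0.26 and 0.25 as deposited). None of the 3 was called on either scale in phl2 P- against WT P-.

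Relatives of CPC were near the limit of detection, and are named here after their values were seen. ETC1 was at 0.413 and 0.477 RPKM in phl2 P-, 0.702 and 0.323 in WT P-, and listed at 0 in both WT P+ libraries. ETC3, listed as CPL3 in RefSeq, was at 0.189 and 0.218 RPKM in phl2 P-, 0.722 and 0.888 in WT P-, and also listed at 0 in WT P+. TRY, another relative, was at 0.165 RPKM in WT P+ replicate 1 and listed at 0 in every other column, and ETC2 was listed at 0 in all 6. MYB23, a close relative of WER, was at 0.885 and 1.02 RPKM in phl2 P-, 0.308 and 0.662 in WT P-, and 0.656 and 0.412 in WT P+. The phl2 columns lay above the others but share their reads, and MYB23 was below the limit for testing. With no limit on low values its log2 change against WT P- was 0.41 as deposited and 0.71 after rescaling, and neither was called.

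Of 16 further transcription factors of hair growth, 10 were tested. In WT P- against WT P+, 3 of the 10 were called higher and 0 lower as deposited, where 28% of all tested genes were called higher, so the share was near that of all genes. After rescaling 0 were called. The 3 were EIN3, an ethylene signalling factor (0.55 ± 0.15, limma adjusted p = 0.031), WRKY75 (0.58 ± 0.16, limma adjusted p = 0.031) and GTL1, a trihelix repressor of RSL4 (0.55 ± 0.16, limma adjusted p = 0.035). Their rescaled changes were 0.14, 0.21 and 0.21, with adjusted p of 0.42, 0.25 and 0.38. Against WT P-, 3 of the 10 were called lower in phl2 P- as deposited, where 19.5% of all tested genes were, and 0 after rescaling. EIN3 averaged 2.44 RPKM in phl2 P-, against 5.29 ± 0.17 in WT P- (SD, n = 2), with a log2 change of -0.87 ± 0.19 (limma adjusted p = 0.04). Its relative EIL1 changed by -0.76 ± 0.21 in the same comparison (limma adjusted p = 0.046). After rescaling these were -0.30 and -0.24, with adjusted p of 0.3 and 0.45. The median of the 10 was -0.64 as deposited and -0.12 after rescaling, against -0.48 and -0.01 over all tested genes.

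The structural and signalling genes of the growing hair act downstream of these regulators. Of 21 such genes, 20 were tested, and 19 were called higher in WT P- than in WT P+ as deposited and 14 after rescaling, with 0 lower either way, where 28% and 8.1% of all tested genes were called higher. Of the 20, PIP5K3 and ERU passed the limit for testing through WT P- alone. With no limit on low values 3 were called higher as deposited (PRP3, LRX1 and EXT12) and 2 after rescaling (PRP3 and EXT12). Their median log2 change was 1.0 as deposited and 0.61 after rescaling, against 0.33 and 0.0 over all tested genes. PRP3, a proline-rich cell wall protein, averaged 5.52 RPKM in phl2 P-, 8.31 ± 0.019 in WT P- and 1.76 ± 0.074 in WT P+ (1.76 ± 0.14 in WT P- against WT P+, limma adjusted p = 1.7e-04, and 1.34 ± 0.12 with adjusted p = 0.0015 after rescaling).

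LRX1, a leucine-rich repeat extensin, averaged 6.89 RPKM in phl2 P-, 9.77 ± 0.37 in WT P- and 2.66 ± 0.0072 in WT P+, and rose by 1.56 ± 0.14 in WT P- against WT P+ (limma adjusted p = 2.5e-04), and by 1.13 ± 0.12 after rescaling (limma adjusted p = 0.0026). EXT12, an extensin, averaged 12.7 RPKM in phl2 P-, 13.3 ± 0.68 in WT P- and 3.9 ± 0.55 in WT P+. Its log2 change was 1.55 ± 0.14 in WT P- against WT P+ (limma adjusted p = 3.0e-04) and 1.10 ± 0.11 after rescaling (limma adjusted p = 0.0019). PRP1, another proline-rich wall protein, rose by 1.34 ± 0.19 (limma adjusted p = 0.002), and by 0.98 ± 0.14 after rescaling (limma adjusted p = 0.0056).

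Set against WT P-, phl2 P- had 3 of the 20 hair genes called lower as deposited, where 19.5% of all tested genes were, and 0 after rescaling, with medians of -0.47 and 0.12, against -0.48 and -0.01 over all tested genes. EXT12 changed by -0.06 ± 0.17 as deposited and by 0.62 ± 0.13 after rescaling in that comparison, and neither was called (limma adjusted p of 0.79 and 0.14). Set against WT P+, it had 4 of the 20 called higher as deposited and 10 after rescaling, and 0 lower, where 2.54% and 5.18% of all tested genes were called higher. EXT12 was then higher by 1.49 ± 0.17 as deposited (limma adjusted p = 0.0026). PRP3 was higher by 1.24 ± 0.17 in that comparison (limma adjusted p = 0.0057). With no limit on low values, none of these hair genes was called against WT P+ as deposited. EXT12 alone was called after rescaling (limma adjusted p = 0.037). Of all genes then tested, 0.00826% and 0.45% were called in either direction.

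**Figure D4:**
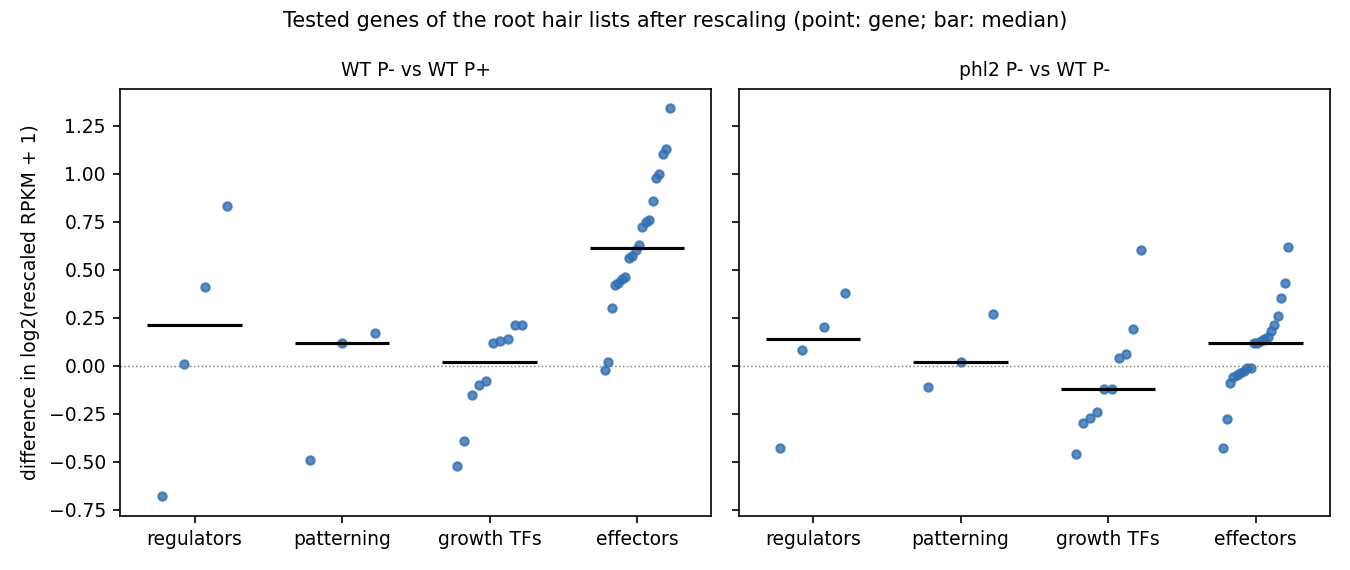
Difference in log2(rescaled RPKM + 1) of each tested gene (points) among the regulators (4 tested), other patterning genes (3), growth transcription factors (10) and structural and signalling genes of the hair (effectors, 20), for WT P- against WT P+ and phl2 P- against WT P-, with lines at the medians. The effectors ranged from -0.02 to 1.34 in WT P- against WT P+.

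Markers of other root cells were set beside these values, and their part in the results was not tested. Summed levels of 4 endodermis markers were 5.37 to 6.16 RPKM in phl2 P-, 9.86 to 10.7 in WT P- and 8.11 to 8.83 in WT P+. Of these sums ESB1 supplied 2.81 and 3.2 RPKM in phl2 P-, 4.53 and 4.74 in WT P-, and 5.36 and 5.32 in WT P+. Unlike ESB1, the other endodermis markers averaged higher in WT P- than in WT P+. Summed levels of 4 stele markers were 4.6 to 5.27 RPKM in phl2 P-, 8.17 to 9.06 in WT P- and 4.62 to 6.58 in WT P+. In WT P- against WT P+, 1 of 3 tested endodermis and 1 of 4 tested stele markers were called higher as deposited. Of all tested genes, 28% were. After rescaling 1 endodermis marker, ESB1, was called lower (84.3% of its exonic bases lie opposite to another gene), where 11.7% of all tested genes were. After rescaling 0 of the stele markers were called. In phl2 P- against WT P-, 1 of the 3 endodermis and 0 of the 4 stele markers were called lower as deposited, where 19.5% of all tested genes were. After rescaling 0 of either list were called.

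The 4 meristem markers summed to 3.1 to 3.59 RPKM in phl2 P-, 4.14 to 5.22 in WT P- and 2.7 to 2.99 in WT P+, and the 1 tested was not called. The 3 root cap markers, at 1.21 to 1.4 RPKM in phl2 P-, 1.28 to 1.58 in WT P- and 0.796 to 1.25 in WT P+, were not tested, nor was the 1 cortex marker, at 0.161 to 0.186 RPKM in phl2 P-, 0.126 to 0.273 in WT P- and 0.0 to 0.146 in WT P+. The 5 shoot markers, genes of photosynthesis, summed to 3.73 to 4.31 RPKM in phl2 P-, 8.62 to 9.58 in WT P- and 16.1 in both WT P+ libraries. Of the 4 tested, 3 were called lower in WT P- than in WT P+ on either scale. Of all tested genes, 4.45% were as deposited and 11.7% after rescaling. Against WT P-, 2 were called lower in phl2 P- as deposited, where 19.5% of all tested genes were, and 0 after rescaling.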

How the data were processed

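The 6 columns of 1 deposited table hold RPKM values of roots in 3 groups, as the authors made them. Per the submitters' processing notes, TopHat2, DESeq2 and the build TAIR10 were used, with no versions or order. The sources used here name no counter, no strand setting and no set of reads behind the denominators. Per the labels' protocols, RNA was extracted with an RNeasy plant kit and libraries were made by the dUTP method. Since the values are RPKM, no count test was used.

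Names, coordinates (1-based), exons and promoters came from TAIR10.1 (RefSeq), which had exons for 32827 of 33602 genes. Reads behind each of the 8 genes were recovered as the smallest gene length, between 50% and 130% of the annotated exonic length, at which every value lay within 0.02 of whole reads. Exact Poisson and Clopper-Pearson intervals (95%) cover counting error only, since reads carry no molecular identifiers.

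The fit used limma 3.58.1 (R 4.3.3) with group means of log2(RPKM + 1) in 5 samples, with both phl2 columns averaged, 2 residual and 6.3 prior degrees of freedom, a variance trend and two-sided tests. The lone phl2 sample was taken to have the spread of the wild-type libraries. The filter was 1 RPKM in 2 or more columns. The fit was run on simulated normal values with the fitted spread and no shift of most genes. Such values cannot show how it behaves with few reads or with that shift. Rescaling divided replicates 1 to 4 by 0.99, 0.83, 1.36 and 1.22 and the phl2 sample by 0.77. Alternatives changed the scaling, pseudocount, filter, variance trend, phl2 columns, opposite-strand genes and replicates. The regulators, lists and tests were chosen with earlier results of these data known. Named were all 8 regulators, up to 4 tested genes with the smallest adjusted p in WT P- against WT P+ from each of 3 lists, and 3 genes of like pattern for each of the 2 regulators with the smallest adjusted p. The relatives of CPC, MYB23, PIP5K3, ERU and ESB1 fall outside that rule and were named after their values were seen.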

Additional observations from a re-analysis of the deposited data

How the results depend on the processing

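Of the 4 regulators tested, 2 were called in WT P- against WT P+. This count was 1 with a filter of 2 RPKM, under which RSL2 was the 1 regulator tested. It was 1 over genes without opposite-strand exons after rescaling, where GL2 was left out and 3 were tested. The count with a filter of 2 RPKM goes with the smaller number tested. In the fit without opposite-strand exons RHD6 was called. RSL2 was tested there and not called (log2 change 0.37, limma adjusted p = 0.067). It was likewise not called after rescaling of all tested genes, where RHD6 and GL2 were. With no filter, where all 8 were tested, the count was 0, rescaled or not. It was 3 with both phl2 columns as replicates, as deposited and rescaled, with GL2 then called lower (limma adjusted p of 0.032 and 0.0074). Those columns share their reads, so this setting counts 1 sample as 2 and understates the spread. Over all 11463 tested genes it called 5030 higher and 743 lower as deposited, and 1771 and 2085 rescaled. Leaving out 1 replicate gave 1 to 2, and 0 to 2 after rescaling, with 0 without replicate 3 or 4. Between phl2 P- and WT P- the count of 1 became 2 with both phl2 columns as replicates, where 7448 of 11463 tested genes were called lower. The count was 0 after rescaling, with a pseudocount of 0.1 (RHD6, limma adjusted p = 0.072) and with no filter. The same held in the 4 other rescaled fits and with a filter of 2 RPKM, under which RHD6 was not tested. Leaving out 1 replicate gave 0 to 1 as deposited and 0 after rescaling. In phl2 P- against WT P+ the count of 0 became 1 with both phl2 columns as replicates, as deposited (GL2 lower) and rescaled (RSL2 higher). In that setting 2207 of all 11463 tested genes were called lower as deposited, and 1890 higher rescaled.

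WER changed sign in WT P- against WT P+, at -0.01 rescaled without a filter, -0.03 without opposite-strand genes, and -0.07 to 0.08 when 1 replicate was left out after rescaling. In phl2 P- against WT P-, rescaling turned 4 uncalled changes positive. CPC was one, at 0.06 against -0.31 (both with no filter). For GL2 the values were 0.38 after rescaling, 0.38 with both columns, 0.39 with no filter, 0.64 with a pseudocount of 0.1 and 0.34, 0.35, 0.40 or 0.41 with 1 replicate left out, and as deposited -0.10 to 0.05 with 1 replicate left out. For RSL2 the same settings gave 0.08, 0.08, 0.10, 0.11 and 0.07 to 0.09, and 0.13 without opposite-strand genes. For WER they gave 0.20, 0.20, 0.22, 0.37 and 0.13 to 0.28 (0.21 without replicate 1, 2 or 5), and 0.24 without opposite-strand genes. The cause was not tested. No paired analysis was possible because each replicate number occurs in 1 group only. Rescaled fits with no filter, with a pseudocount of 0.1 or with 1 replicate left out were chosen after seeing the data.

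Over all tested genes, 3210 were called higher and 510 lower in WT P- against WT P+, and 928 and 1342 after rescaling. Between phl2 P- and WT P- 33 were higher and 2230 lower, and 8 and 2 after rescaling. Between phl2 P- and WT P+ 291 were higher and 598 lower, and 594 and 590 after rescaling. The number of counted reads limited RSL1, RSL4, CPC and TTG1, with at most 13 in any column.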
